A study of Mus musculus with 6 samples.

Results

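The aryl hydrocarbon receptor genes examined here were 8 rows of a table of 48587 genes from neonatal mouse kidney: the receptor Ahr, its partner Arnt, the feedback repressors Ahrr and Tiparp, and the target enzymes Cyp1a1, Cyp1b1, Cyp2s1 and Nqo1. They were picked by gene symbol, and the set was drawn up because Cyp2s1 rose in each of 3 equally numbered pairs of libraries. The genotype difference of Cyp2s1 therefore served to choose the set and is given as a description without a test, as are the genotype differences of the other 7 members, which come from the same contrast. All 8 were measured, and all 8 passed the filter on low counts that left 14311 genes.

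The libraries were 3 from Foxp1-deficient animals (Cdh16Cre;Foxp1fl/fl;RiboTag) and 3 from littermate controls (Cdh16Cre;Foxp1fl/+;RiboTag), so both groups carried the Cre driver, the tagged-ribosome allele and at least 1 floxed allele of Foxp1, which encodes a forkhead transcription factor. RiboTag puts an HA tag on ribosomes in cells with Cre activity, Cdh16 drives Cre in kidney tubule epithelium, and RNA was recovered with anti-HA beads from whole-kidney homogenate. The labels also give the Foxp1-deficient group a chronic acid load and the controls vehicle, although the protocols mention none, so genotype and treatment cannot be told apart. The labels do not say whether each library is its own animal, and the spread behind every p-value is that between libraries, possibly technical.

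The receptor is a ligand-activated transcription factor of the bHLH-PAS family. Bound by planar aromatic pollutants or tryptophan-derived ligands, it leaves a chaperone complex in the cytosol, pairs with Arnt and binds DNA at a core of GCGTG. Its targets include the cytochrome P450 genes of the Cyp1 family, which oxidise many of its ligands, and Cyp2s1, a P450 gene best known from epithelia outside the liver. Nqo1, a quinone reductase gene, answers both to this receptor and to the oxidative stress factor NRF2. Ahrr competes with the receptor for Arnt, and Tiparp encodes a mono-ADP-ribosyltransferase that also restrains it.

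The upstream DNA of the members is shown because GCGTG is the core that the receptor pair reads. RefSeq gave a window of 300 bases around the start site for 7 of the 8 members (build GRCm38.p6); Ahr was not among them. Letters are 5′ to 3′ on the gene's strand, and capitals mark GCGTG or, on the other strand, CACGC. The first 2 lines give the 250 bases before the start site of Cyp2s1 (chr7:25816526-25816775, minus strand) and of Ahrr (chr13:74292332-74292581, minus strand), and the next 4 give 29 bases around the core in Cyp1a1 (chr9:57697547-57697575, plus strand), Cyp1b1 (chr17:79715121-79715149, minus strand), Arnt (chr3:95434349-95434377, plus strand) and Tiparp (chr3:65528265-65528293, plus strand).
Cyp2s1: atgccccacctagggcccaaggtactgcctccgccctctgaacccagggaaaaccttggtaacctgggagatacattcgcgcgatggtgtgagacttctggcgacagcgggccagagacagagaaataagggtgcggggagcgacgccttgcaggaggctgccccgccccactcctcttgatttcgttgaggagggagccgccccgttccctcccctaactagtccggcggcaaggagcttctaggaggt
Ahrr: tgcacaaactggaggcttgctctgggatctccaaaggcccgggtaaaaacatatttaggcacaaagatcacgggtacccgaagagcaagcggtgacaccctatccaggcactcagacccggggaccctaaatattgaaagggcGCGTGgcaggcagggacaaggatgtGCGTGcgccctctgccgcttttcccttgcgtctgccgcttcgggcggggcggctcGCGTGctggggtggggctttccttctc
Cyp1a1: tcagataaggagGCGTGgccaacagacac
Cyp1b1: cgtcccgcccctCACGCcccaccccctaa
Arnt: ccatagtttgggGCGTGtcttctgcccag
Tiparp: ctccgtccggagCACGCgcacgggaggcg

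GCGTG, searched on both strands, occurred in 5 of the 7 windows, and in 32.6% of 32544 windows of the same length over all genes. Ahrr held 3 matches, the nearest at positions -27 to -23 from the start site, while Cyp1a1, Cyp1b1, Arnt and Tiparp held 1 each. The longer form TNGCGTG, which contains the core, matched in Ahrr alone of the 7 and in 5.09% of all windows. The windows of Cyp2s1 and Nqo1 held no GCGTG, and DNA outside the windows was not searched.

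The cores of other factors were rarer in these windows. ACGTG, the core read by hypoxia-inducible factors and other Arnt partners, and the forkhead core TGTTTAC each matched in 0 of 7 windows, against 19.7% and 3.66% of all windows. TGACNNNGC, a form of the antioxidant element, matched in Arnt alone, with 2 matches, and in 12.4% of all windows. In the deposited table Cyp2s1 exons reach to position 25816913, beyond the RefSeq start site at 25816525, so a further start may lie upstream of the letters shown.

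The libraries had totals of 9710048 to 18958196 counts, and those numbered 2 had the fewest genes with a count, 14285 in the Foxp1-deficient and 13885 in the control library, against 18241 to 22190 in the other 4. Foxp1 itself had 34.5, 11.3 and 29.1 CPM in Foxp1-deficient libraries 1, 2 and 3, against 48.7, 30.7 and 35.7 CPM in controls 1, 2 and 3, and its groups overlapped (log2 fold change -0.62, SE 0.49, Benjamini-Hochberg adjusted p = 0.9998 in edgeR's quasi-likelihood fit, or 0.853 with the library number as a block). CPM here are counts scaled to library size with TMM factors. Exons that the floxed allele keeps still add to the Foxp1 count. Cdh16, the driver gene, had 0.28, 2.42 and 42.0 CPM in Foxp1-deficient libraries, against 0.33, 10.9 and 42.8 in controls, and Umod of the thick ascending limb had at most 0.73 CPM outside the libraries numbered 3, where it had 75.4 CPM in the Foxp1-deficient library and 69.6 CPM in the control. Marks of the labelled tubular cell type differed by segment. Over the thick limb and distal tubule list, 6 genes summed to 187 CPM in Foxp1-deficient library 3 and 164 CPM in control 3, and to at most 2.03 CPM in the other 4 libraries. The proximal tubule list summed to 63.4, 143 and 453 CPM in Foxp1-deficient libraries, against 37.2, 67.0 and 338 CPM in controls. Its receptor gene Lrp2 had 32.4 CPM or more in every library. Lrp2 made up most of the sum in the libraries numbered 1, with 52.4 CPM in the Foxp1-deficient library and 33.0 CPM in the control. Of the 8 genes of that list, 6 had no count in at least 1 library, and Hnf4a had at most 0.90 CPM outside the libraries numbered 3. The collecting duct list summed to 121, 12.6 and 41.1 CPM in Foxp1-deficient libraries, against 90.1, 19.8 and 34.7 CPM in controls, mostly from Slc4a1, also a red cell gene, in the libraries numbered 1. By comparison, 7 stromal genes summed to 5641 to 15833 CPM in Foxp1-deficient libraries and 13783 to 18412 CPM in controls.

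Cyp2s1 (chromosome 7, 25802475 to 25816913, mm10, minus strand) was about 4 times as high in the Foxp1-deficient library of every pair. It had 92.7, 206 and 96.9 CPM in Foxp1-deficient libraries 1, 2 and 3, against 24.3, 50.9 and 26.3 CPM in controls 1, 2 and 3. The ratio of Foxp1-deficient to control was 3.81, 4.04 and 3.68 in pairs 1, 2 and 3. The lowest Foxp1-deficient value lay above the highest control, and in both groups library 2 was the highest and the others lay close together. The mean was 132 ± 64.0 CPM in Foxp1-deficient libraries and 33.9 ± 14.8 CPM in controls (SD, n = 3 each), with a log2 fold change of 1.96 (SE 0.50), or 1.94 (SE 0.13) with the library number as a block. Groups did not overlap in the higher direction for 2.65% of all genes tested, and 16.5% were higher in all 3 pairs. Cyp2s1 was chosen for this difference, and nothing is read from it.

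**Figure D1:**
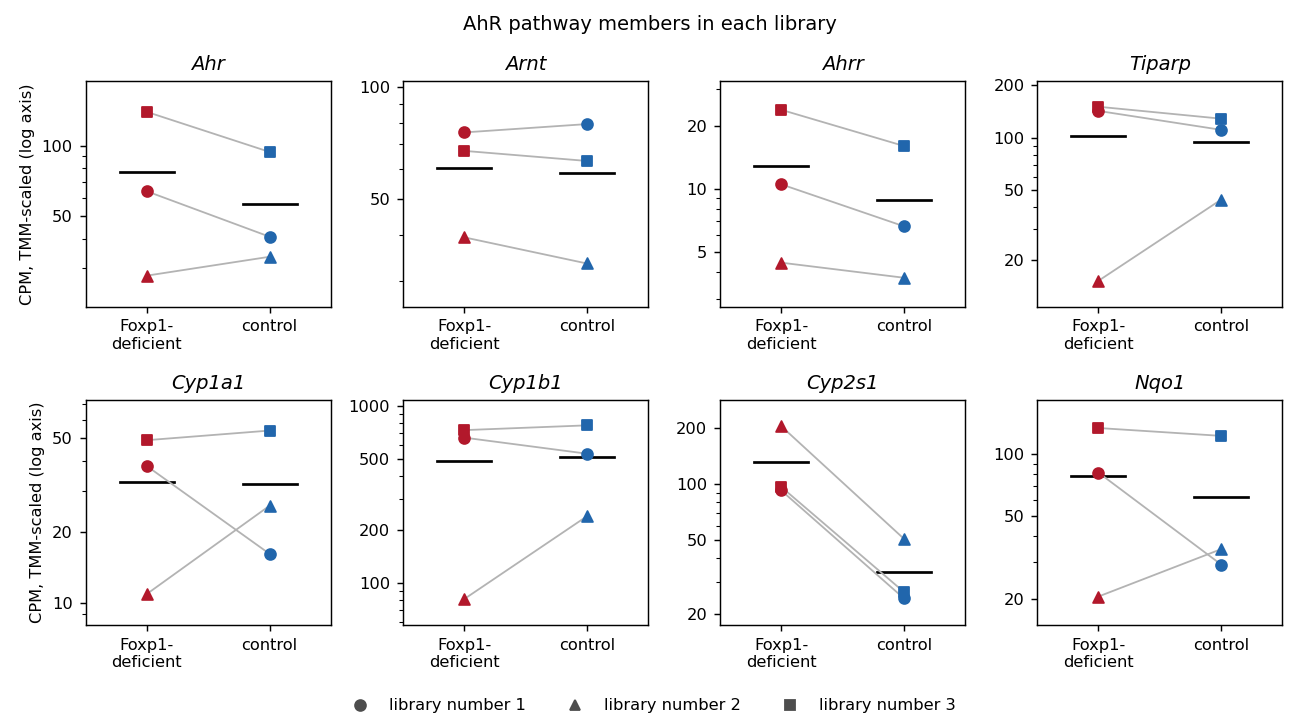
TMM-scaled CPM (log axis) of the 8 members in each library, Foxp1-deficient in red at left and control in blue at right, with grey lines joining equally numbered libraries and black bars at group means (n = 3 each). Cyp2s1 runs from 92.7 to 206 CPM in Foxp1-deficient libraries and from 24.3 to 50.9 CPM in controls, while the groups of the other 7 genes overlap.

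The counts behind these values were 1642, 1617 and 2124 in Foxp1-deficient libraries, against 367, 486 and 544 in controls. The row shares 260 exon bases, 5.27% of its exon length, with Gm26707 on the opposite strand, and the counting command has no strand option, so reads there cannot be told apart. Gm26707 itself was counted at most 2 times in any library. Axl, the nearest protein-coding neighbour at 13769 bases and a receptor tyrosine kinase gene, had 1167, 391 and 721 CPM in Foxp1-deficient libraries, against 750, 393 and 730 CPM in controls, and went both ways over the pairs. Cyp2b10, the neighbour on the other side, had at most 0.13 CPM.

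Epithelial keratins, and some but not all mesothelial and urothelial genes, were higher in the same libraries of each pair as Cyp2s1. The summed level of 10 genes of basal and simple epithelium was 1796, 5961 and 1515 CPM in Foxp1-deficient libraries, against 665, 2090 and 783 CPM in controls. All 6 of its tested genes, Krt14, Krt7, Krt8, Krt18, Krt19 and Epcam, were higher in all 3 pairs, which 16.5% of all genes were. Of the 6, 0 passed edgeR's test (lowest unadjusted p 7.661e-04, for Krt14). Epcam had 1.36, 1.53 and 9.35 CPM in Foxp1-deficient libraries, against 0.40, 0 and 9.06 CPM in controls. It passed the low-count filter only with its Foxp1-deficient values, so nothing is read from its direction. Krt5, Krt15, Cdh1 and Trp63 did not pass that filter. Krt14, a basal keratin gene, had 125, 325 and 160 CPM in Foxp1-deficient libraries, against 18.5, 30.7 and 36.6 CPM in controls, while Krt5, its usual partner, and Trp63, the basal cell regulator, had at most 0.11 and 1.09 CPM in any library. The mesothelium and urothelium list summed to 2568 to 4987 CPM in Foxp1-deficient libraries and 1655 to 2185 CPM in controls. Among its 6 tested genes, Msln, Upk3b and Upk1b were higher in all pairs, and Wt1, Lrrn4 and Upk1a were not. Msln, encoding mesothelin, had 419, 1590 and 756 CPM in Foxp1-deficient libraries, against 173, 645 and 427 CPM in controls, while Wt1, a mesothelial and podocyte factor gene, had 131, 86.1 and 135 CPM, against 182, 63.4 and 148 CPM in controls. Leukocyte genes went the other way. Their list summed to 49.1, 146 and 381 CPM in Foxp1-deficient libraries, against 261, 274 and 838 CPM in controls, with 6 of 6 fold changes below 0. The endothelial list summed to 26.5, 8.27 and 47.9 CPM in Foxp1-deficient libraries, against 65.6, 7.23 and 74.0 CPM in controls, with 5 of 6 below 0. The exception, Flt1, was higher in all 3 pairs, and 4 of the 6 endothelial genes had no count in some library. Over all genes tested, 53.6% of fold changes were above 0. In edgeR's test, 0 genes of these lists passed. In bulk pulldowns, more cells of a type and more RNA per cell cannot be told apart, and the part of these genes in the Cyp2s1 difference was not tested.

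The groups of the other 7 members overlapped. Ahr (chromosome 12, 35497974 to 35535038) had 63.9, 27.9 and 139 CPM in Foxp1-deficient libraries 1, 2 and 3, against 40.9, 33.5 and 94.1 CPM in controls. Both groups ranked their libraries 3, 1, 2 from high to low, with overlapping groups. The log2 fold change was 0.46 (SE 0.66). Arnt (chromosome 3, 95434388 to 95497240), the shared partner of the family, had 75.4, 39.4 and 67.3 CPM, against 79.4, 33.5 and 63.2 CPM in controls. Its highest library was 2.37 times its lowest, the narrowest range of the 8 members, with log2 differences of -0.07, 0.23 and 0.09 in pairs 1, 2 and 3 and a fold change of 0.05 (SE 0.45).

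Ahrr (chromosome 13, 74211118 to 74292331), the repressor whose upstream window held 3 GCGTG cores, had 10.5, 4.45 and 23.8 CPM in Foxp1-deficient libraries, against 6.63, 3.77 and 16.0 CPM in controls. It was higher in the Foxp1-deficient library of all 3 pairs, as Cyp2s1 was, by log2 differences of 0.66, 0.24 and 0.57, but its groups overlapped and its fold change was 0.55 (SE 0.79). Its counts in the libraries numbered 2 were 35 and 36. Tiparp (chromosome 3, 65528410 to 65555518) had 142, 15.3 and 150 CPM in Foxp1-deficient libraries, against 111, 44.3 and 128 CPM in controls. Foxp1-deficient library 2 stood lowest by far, and the 3 log2 differences were 0.36, -1.54 and 0.23. Its fold change was 0.12 (SE 0.80), or -0.26 (SE 0.40) with the library number as a block. The Tiparp row shares 223 exon bases with 4931440P22Rik on the opposite strand, which had 1 to 55 counts.

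Cyp1a1 (chromosome 9, 57697613 to 57703822), the most widely used reporter of receptor activity, had 38.1, 10.9 and 49.1 CPM in Foxp1-deficient libraries, against 16.2, 25.9 and 53.9 CPM in controls. The pairs pointed different ways, with log2 differences of 1.24, -1.24 and -0.14, and the fold change was 0.03 (SE 0.66). Cyp1b1 (chromosome 17, 79706953 to 79715041) was the most abundant member, with 663, 80.9 and 731 CPM in Foxp1-deficient libraries, against 538, 238 and 778 CPM in controls. Foxp1-deficient library 2 again stood lowest, and the fold change was -0.07 (SE 0.81), or -0.43 (SE 0.39) with the block. Nqo1 (chromosome 8, 107388225 to 107403206) had 81.4, 20.5 and 134 CPM, against 29.2, 34.7 and 122 CPM in controls. Its log2 differences were 1.48, -0.76 and 0.13 over the pairs, with a fold change of 0.34 (SE 0.79).

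**Figure D2:**
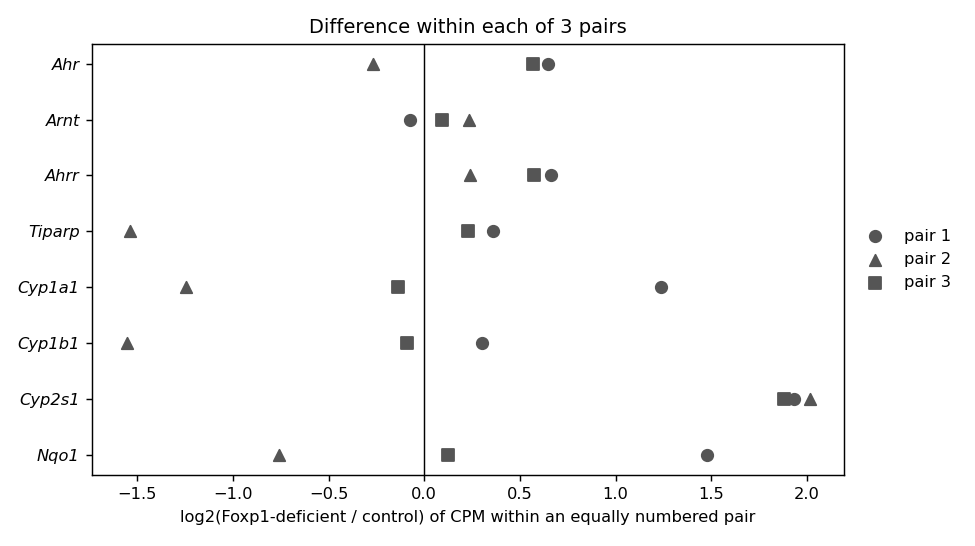
Log2 ratio of Foxp1-deficient to control CPM within each equally numbered pair, for each member (circle pair 1, triangle pair 2, square pair 3). The 3 values of Cyp2s1 lie between 1.88 and 2.01, whereas those of Tiparp, Cyp1a1, Cyp1b1 and Nqo1 spread on both sides of 0.

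The difference of Cyp2s1 within pairs averaged 1.94 ± 0.07 on the log2 scale (SD over 3 pairs). The SD over pairs was 0.15 for Arnt and 0.22 for Ahrr, and between 0.51 and 1.24 for the other 5. In pair 2, Cyp1a1, Cyp1b1, Tiparp, Nqo1 and Ahr were lower in the Foxp1-deficient library than in the control. Arnt and Ahrr were higher there, as was Cyp2s1, which was chosen for rising in every pair. Among all genes tested, 46.4% were lower in Foxp1-deficient library 2 than in control 2. Members also differed in direction in the other pairs, with Arnt lower in pair 1 and Cyp1a1 and Cyp1b1 lower in pair 3. Of the members, 5 had their lowest value in Foxp1-deficient library 2 and 2 in control 2, the libraries where 28.9% and 29.4% of all genes tested were lowest. A gene tied for lowest was counted once, for a control before a Foxp1-deficient library. The share of 28.9% thus leaves out genes at the same lowest value in control 2.

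Over all 14311 genes, edgeR's quasi-likelihood test called 0 (0%) at an adjusted p under 0.05, with 103 (0.72%) at an unadjusted p under 0.05, so no member was among its calls. Cyp2s1, at a log2 fold change of 1.96, was not called either, and a gene that missed the threshold is not thereby shown to be unchanged. With the library number as a block it also called 0, with 762 (5.32%) at an unadjusted p under 0.05. DESeq2 called 6 genes (0.0238% of 25186), none of them a member, and limma-voom with quality weights called 0. The fold changes of 7 members were above 0, as were those of 53.6% of all genes, and that of Cyp1b1 was below, with a median of 0.23 over the 8 and 0.12 over the 7 without Cyp2s1, beside 0.03 over all genes.

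The members' levels also varied with the library number. The titles give that number, and libraries of equal number deviated from their group means together. Cyp2s1 was chosen for rising in every equally numbered pair, which bears on the error of a fit with group and number, so its variation among numbers is described without a test. In that fit, 5 of the other 7 members differed among numbers at an adjusted p under 0.05, where 30.7% of all genes tested did (edgeR quasi-likelihood test, 2 libraries a number). The adjusted p was 0.0171 for Ahr, 0.0239 for Arnt, 0.0276 for Ahrr, 0.0417 for Cyp1b1 and 0.0483 for Tiparp in that edgeR test. Nqo1 and Cyp1a1 did not pass (adjusted p = 0.0626 and 0.192). Cyp2s1 averaged 58.5, 128 and 61.6 CPM in the libraries numbered 1, 2 and 3, and was the member highest in number 2. Cyp1b1 averaged 601, 159 and 755 CPM, Tiparp 127, 29.8 and 139 CPM, and Ahr 52.4, 30.7 and 117 CPM over the same numbers.

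When the libraries numbered 2, which had the fewest genes detected, were left out, the picture changed for most members. Between numbers 1 and 3 only, Ahr, Ahrr and Nqo1 differed (edgeR adjusted p = 0.00414, 0.0154 and 0.0316), where 18.8% of all genes tested did, and were higher in number 3, the number with the most thick limb and proximal tubule transcripts. Tiparp, Arnt, Cyp1b1 and Cyp1a1 did not pass (edgeR adjusted p = 0.379, 0.184, 0.16 and 0.0701). The calls of Tiparp, Arnt and Cyp1b1 among numbers thus needed the libraries numbered 2, whose lower detection moved with them, and the fit without those libraries had fewer samples. The part of detection and of cell makeup was not tested.

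Some members followed each other closely over the libraries. Per exon length, Ahrr stood to Ahr at a ratio of 0.109, 0.106 and 0.113 in Foxp1-deficient libraries and 0.107, 0.0744 and 0.112 in controls, although Ahr itself ranged over 5.01-fold. The ratio of Cyp1a1 to Cyp1b1 was less even, from 0.112 to 0.265 and from 0.0589 to 0.213. Across the 6 libraries, log2 CPM of Cyp1b1 and Tiparp correlated at Pearson r = 0.995 and of Ahr and Ahrr at 0.984, as a description over libraries that share depth and number. The 21 pairs among the 7 members without Cyp2s1 had r from 0.397 to 0.995, with a median of 0.804. Cyp2s1 correlated with each of the 7 at r between -0.592 and -0.123. These values take in the genotype difference for which Cyp2s1 was chosen, so nothing is read from them.

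The genes whose pattern came closest to that of Cyp2s1 were outside the receptor pathway. Among 10300 other genes averaging at least 5 CPM, log2 CPM over the 6 libraries was most like that of Cyp2s1 for Gjb5, Klf2, Ppp1r13b, AI464131 and Mb21d2, with Pearson r of 0.981, 0.977, 0.976, 0.972 and 0.972. Gjb5, a gap junction connexin gene of stratified epithelia, had 14.0, 37.9 and 15.5 CPM in Foxp1-deficient libraries, against 2.39, 5.66 and 4.50 CPM in controls. Klf2, a Krüppel-like transcription factor gene best known in endothelium, had 64.9, 283 and 82.2 CPM, against 6.83, 37.7 and 17.2 CPM in controls. Ppp1r13b, encoding the p53-binding protein ASPP1, had 69.1 ± 14.7 CPM in Foxp1-deficient libraries and 47.1 ± 4.65 CPM in controls (SD, n = 3 each). AI464131 and Mb21d2 were at 20.1 to 23.3 and 23.0 to 33.6 CPM in Foxp1-deficient libraries, against 9.02 to 13.6 and 14.5 to 20.5 CPM in controls. Each of the 5 was highest in Foxp1-deficient library 2. The Pearson likeness with Cyp2s1 takes in its genotype difference, so the separation of groups in these genes follows from the ranking.

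**Figure D3:**
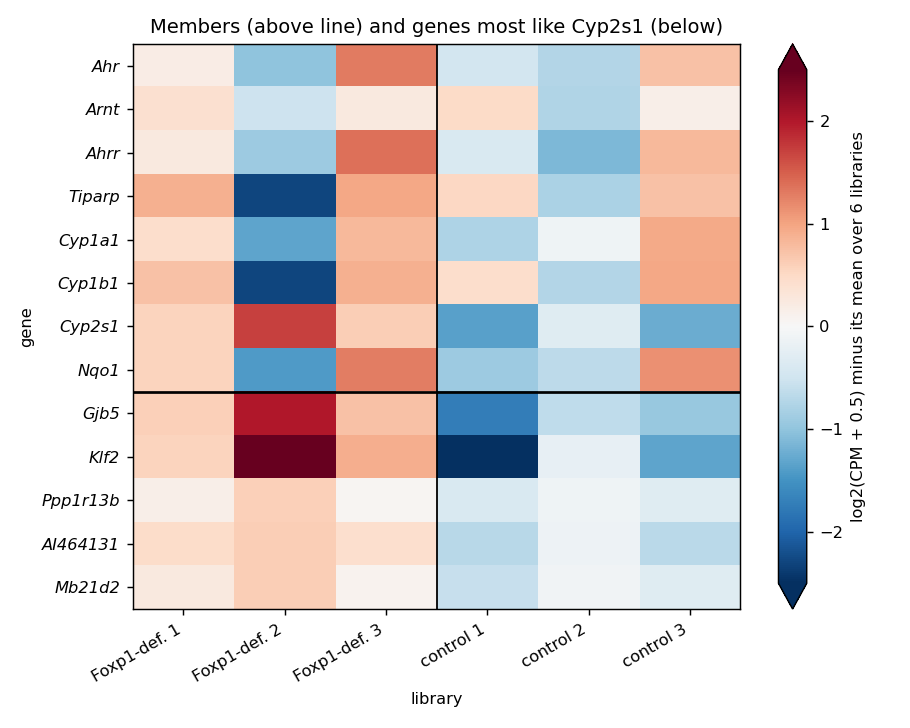
Log2(CPM + 0.5) of each gene minus its mean over the 6 libraries (red higher, blue lower), with Foxp1-deficient libraries at left and controls at right. Above the line are the 8 members, of which Cyp2s1 alone is highest in Foxp1-deficient library 2; below it are the 5 genes most like Cyp2s1, at r of 0.972 to 0.981.

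Per kilobase of exon, the members spanned a wide range of levels. Over the 6 libraries the mean was 98.5 ± 55.4 CPM per kb for Cyp1b1, 45.3 ± 31.9 for Nqo1, 22.6 ± 12.8 for Tiparp, 16.8 ± 13.7 for Cyp2s1, 12.4 ± 6.70 for Cyp1a1, 10.8 ± 7.01 for Ahr, 7.46 ± 2.37 for Arnt and 1.16 ± 0.83 for Ahrr (SD, n = 6). The ranges of neighbours in this order overlapped, except that Ahrr, at most 2.55 CPM per kb, lay below Arnt, at least 4.19 CPM per kb. The order varied between libraries. In Foxp1-deficient library 2, Cyp2s1 stood at 41.6 CPM per kb and Cyp1b1 at 15.8. In the other 5 libraries Cyp1b1 stood at 46.4 to 152 and Cyp2s1 at 4.93 to 19.6. In controls 1 and 3, Cyp2s1 stood at 4.93 and 5.34, below Cyp1a1, Ahr and Arnt, while in control 2 it stood at 10.3, above them.

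Among P450 genes as a family, Cyp1b1, Cyp2s1 and Cyp1a1 ranked 1, 3 and 4 by mean level per length. The mean takes in the Foxp1-deficient values for which Cyp2s1 was chosen. In control 1 Cyp2s1 stood at 4.93 CPM per kb, below Cyp1a1 at 6.18 and Cyp20a1 at 15.4. In control 3 it stood at 5.34, below Cyp1a1 at 20.6 and Cyp2j5 at 20.4, among others. In control 2 it stood at 10.3, above Cyp1a1 at 9.88. By symbol, Cyp followed by a digit with pseudogenes left out, the family had 101 rows. Among them was Cyp4x1os, by its symbol an opposite-strand transcript and not a P450 gene, with no count. Of the 101, 24 had no count in any library. In all, 58, those 24 included, stayed under 1 CPM in every library, and 26 could be tested. Of the 23 tested genes that are not members, 18 had a fold change above 0 and 5 below it (median 0.12 on the log2 scale). Over all genes tested, 53.6% were above 0. Not all of the 23 were well counted. Cyp4b1, with 27, 16 and 50 counts in Foxp1-deficient libraries against 0, 0 and 56 in controls, passed the filter only with its Foxp1-deficient values. Of the 23, 0 passed edgeR's test, and 1 was higher in all 3 pairs, which 16.5% of all genes tested were. That gene, Cyp4f13, had 4.07, 45.3 and 6.07 CPM in Foxp1-deficient libraries, against 3.58, 6.81 and 4.46 CPM in controls (log2 fold change 1.90, SE 0.96, adjusted p = 0.9998, edgeR). Cyp2d22 had 4.80, 50.9 and 15.5 CPM, against 5.84, 9.12 and 11.6 CPM in controls, and Cyp51, the sterol demethylase gene of cholesterol synthesis, had 165, 381 and 150 CPM, against 174, 152 and 146 CPM in controls (both adjusted p = 0.9998, edgeR). In all 3 genes Foxp1-deficient library 2 was the highest, and the remaining libraries of both groups overlapped.

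**Figure D4:**
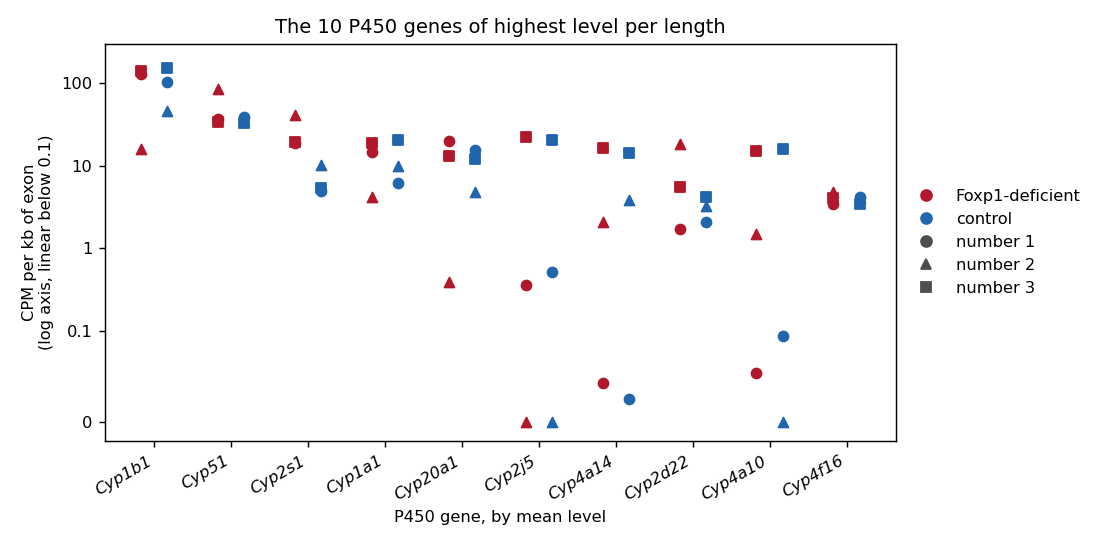
CPM per kb of exon (log axis, linear below 0.1) in each library for the 10 P450 genes of highest mean level, Foxp1-deficient in red to the left of control in blue; symbols give the library number. Cyp2s1 is the gene of the 10 whose Foxp1-deficient values, at least 18.8 CPM per kb, all lie above its controls, at most 10.3. It was chosen for rising in every pair, so nothing is read from this, and 2.65% of all genes tested are apart in that direction.

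The microsomal electron donors that P450 enzymes need were also followed. Por, encoding the reductase that passes electrons to microsomal P450 enzymes, had 64.9, 216 and 115 CPM in Foxp1-deficient libraries, against 54.2, 83.8 and 106 CPM in controls. Cyb5r3, a cytochrome b5 reductase gene, had 329, 390 and 290 CPM, against 205, 297 and 242 CPM in controls. Both were higher in all 3 pairs, and so was Fdx1, the mitochondrial ferredoxin gene, with 15.6 ± 2.32 CPM in Foxp1-deficient libraries and 12.0 ± 2.89 CPM in controls (SD, n = 3 each). None passed (log2 fold changes 0.70, SE 0.52, 0.44, SE 0.36, and 0.37, SE 0.44, each adjusted p = 0.9998, edgeR). Of the 10 genes for electron donors and haem, 5 were higher and 5 lower, with a median of 0.00, beside 0.03 over all genes. In all 3 pairs, those 3 were higher and 2 were lower, Cyb5a, a cytochrome b5 gene, and Hmox2, a haem oxygenase gene, where 16.5% and 16% of all genes were.

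The rest of the pathway gave no call in either direction. Over all lists, 84 genes that are not members were tested, with 48 fold changes above 0 and 36 below, where 53.6% of all genes were above 0. In all 3 pairs, 6 were higher and 15 lower in the Foxp1-deficient library, where 16.5% and 16% of all genes were. Of the 84, 0 passed edgeR's test with or without the block, with 0 and 2 at an unadjusted p under 0.05. DESeq2, which tested 144 genes of the lists, and limma-voom, which tested the 84, called 0 at an adjusted p under 0.05, with 3 and 0 at an unadjusted p under 0.05. Of 12 genes of the receptor complex, 5 were higher and 7 lower (median -0.06). Ptges3, the p23 co-chaperone gene of that complex, had 214 ± 101 CPM in Foxp1-deficient libraries and 268 ± 57.4 CPM in controls, and was lower in all 3 pairs. The coactivator genes Ncoa2 and Crebbp had 31.2 ± 10.6 and 49.0 ± 8.21 CPM in Foxp1-deficient libraries, against 23.8 ± 16.0 and 54.4 ± 4.53 CPM in controls (SD, n = 3 each).

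Of the 18 receptor target genes, 10 could be tested, 6 of them members. The remaining 4 were higher for 3 and lower for 1, with a median of 0.09. Xdh, the xanthine dehydrogenase gene, had 27.5 ± 30.5 CPM in Foxp1-deficient libraries and 21.3 ± 21.7 CPM in controls (SD, n = 3 each). It differed among library numbers (edgeR adjusted p = 0.0107), with its highest values in number 3 (62.6 CPM in the Foxp1-deficient library and 46.2 CPM in the control), as Ahr had. Nfe2l2, which encodes NRF2, had 105 ± 47.5 CPM in Foxp1-deficient libraries and 97.0 ± 33.7 CPM in controls, and Scin, encoding the actin-severing protein scinderin, 1.61 ± 2.23 and 3.61 ± 2.11 CPM in the same order (SD, n = 3 each).

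Of 19 NRF2 target genes other than Nqo1, 10 were higher and 9 lower (median 0.01), and 11 differed among library numbers, which 30.7% of all genes tested did. Keap1, encoding the adaptor that marks NRF2 for degradation, had 61.6 ± 18.3 CPM in Foxp1-deficient libraries and 49.8 ± 6.18 CPM in controls, Mafg, an NRF2 partner gene, 75.3 ± 13.6 and 64.6 ± 16.9 CPM, and Fth1, the ferritin heavy chain gene, 1133 ± 538 and 1458 ± 600 CPM (SD, n = 3 each). Fth1 was lower in all 3 pairs and Mafg higher. Among 9 bHLH-PAS genes that are not members, which can share Arnt, 5 were higher and 4 lower (median 0.04). Hif3a, Epas1 and Clock had 6.91 ± 1.73, 8.36 ± 3.74 and 24.2 ± 16.9 CPM in Foxp1-deficient libraries, against 5.34 ± 1.31, 9.90 ± 3.25 and 29.5 ± 3.57 CPM in controls. Of 10 genes of tryptophan and kynurenine metabolism, which makes or removes receptor ligands, 3 were higher and 7 lower, with a median of -0.19. Maoa and Maob, the monoamine oxidase genes, had 76.0 ± 54.6 and 0.76 ± 0.67 CPM in Foxp1-deficient libraries, against 117 ± 33.8 and 2.85 ± 2.54 CPM in controls, and both were lower in all 3 pairs. Kyat1, a kynurenine aminotransferase gene, had at most 7.88 CPM in Foxp1-deficient libraries and 4.50 CPM in controls, with a fold change of 0.92 (SE 1.41).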

How the data were processed

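Ribosome-bound RNA of 6 kidney libraries was counted per gene symbol. The authors deposited raw fragment counts made with featureCounts 1.5.1, which counted read pairs over the exons of an mm10 annotation (version 86), per the file headers, with no strand or multi-mapping option in the command. STAR, Trimmomatic, FastQC, SAMtools, deepTools and DESeq2 are named, without roles or versions, per the submitters' processing notes. The 6 count columns were matched to samples by name, and 0 further count columns were present. Exon length came from the same table.

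Counts were filtered by filterByExpr, scaled by TMM and tested with the quasi-likelihood F test of edgeR 4.0.16 (R 4.3.3), two-sided, with Benjamini-Hochberg adjustment over all 14311 genes at 0.05. Alternatives used other size factors or filters, DESeq2 1.42.0, limma 3.58.1, a replicate block, and fewer libraries. The procedure was tested on simulated data. Without the block it missed the changes put in, and with the block it found part of them, along with false calls. A lack of calls is thus not a lack of change. Equally numbered libraries deviated together (r = 0.574, 0.53 and 0.617 in pairs 1, 2 and 3), so numbers were taken to pair libraries, from the data and not from the labels. At these library totals the limit behind a count of 0 is 3 counts, or 0.137 to 0.382 CPM, which covers counting error only. Promoter windows came from RefSeq (GRCm38.p6, the mm10 assembly).

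The members and lists were chosen with earlier results of these data known. Genes named are the members, Foxp1, up to 3 genes of lowest p per pathway list and the 5 most like Cyp2s1. Axl and Cyp2b10 were taken by position, and the markers from fixed lists. Cdh16 was added as the Cre driver.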

Additional observations from a re-analysis of the deposited data

How the results depend on the processing

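Over the 16 alternatives, Cyp2s1 stayed higher in Foxp1-deficient libraries in 16, with log2 fold changes from 1.49 (without Foxp1-deficient library 2) to 2.36 (without control 2). It was chosen for rising in every pair, and its groups did not overlap. That steady direction thus follows from the choice, and nothing is read from it. The other members changed direction with 1 library: without Foxp1-deficient library 3, Ahr stood at -0.30, Ahrr at -0.25, Nqo1 at -0.29 and Tiparp at -0.27. Without control 3, Ahr stood at 1.06, Ahrr at 1.32 and Nqo1 at 1.31, and without Foxp1-deficient library 2 Tiparp stood at 0.63. Cyp1a1 ran from -0.39 to 0.65, Cyp1b1 from -0.48 to 0.43 and Arnt from -0.24 to 0.33. DESeq2 called 6 genes higher, against 0. With both libraries numbered 2 left out, the fit with the replicate block called 28 higher and 2 lower, and without the block 0. Cyp2s1 was the 1 member among the calls with the block. It was chosen for its agreement over pairs, so that call is no test of it. With all 6 libraries, the replicate block left the counts at 0 and 0, and each library left out in turn gave 0 to 0. No alternative called a pathway gene outside the members. Library-number calls were 4394, and 2874 without the libraries numbered 2, an alternative chosen after seeing the data. Low counts limit Ahrr, at 35 and 36 counts in the libraries numbered 2. The causes were not tested.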

Other observations

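Other P450 genes marked the libraries numbered 3, as seen after their values were known. Cyp2j5, an epoxygenase gene of proximal tubule, had 0.85, 0 and 52.5 CPM in Foxp1-deficient libraries 1, 2 and 3, against 1.19, 0 and 47.9 CPM in controls. Cyp4a14 and Cyp4a10, fatty acid hydroxylase genes, had 42.6 and 32.3 CPM in Foxp1-deficient library 3, against 37.6 and 33.6 CPM in control 3, and at most 9.96 and 3.18 CPM in the other 4 libraries. Cyp20a1 was lowest in both libraries numbered 2, which had the fewest genes detected. It had 46.2, 0.89 and 29.8 CPM in Foxp1-deficient libraries, against 35.3, 10.9 and 27.7 CPM in controls.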
